A study of Mus musculus with 6 samples.

Results

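Mitochondrial ribosomal protein genes were taken here as the genes whose symbol is Mrpl or Mrps followed by a number and, in some, a letter. The tables held 77 of them among 24346 gene symbols, with 48 Mrpl genes named for the large subunit and 29 Mrps genes named for the small subunit. Together they had 95 of the 34535 listed transcripts. The study compared luminal cells, the secretory epithelium of the prostate, from C57BL/6 mice aged 4 months. In CSF1 mice a transgene places mouse Csf1, which encodes the growth factor of macrophages, behind the rat probasin promoter, a promoter active in prostate luminal cells, and WT mice are their littermates without it. Cells of both groups were sorted by flow cytometry, with the sort markers not given in the sources used here. Each group had 3 libraries, numbered 3, 5 and 8 in both, and no label says what the numbers stand for or whether each library is from its own animal. The p-values below therefore describe the spread among these libraries, which may be technical. Levels are in FPKM, a fragment count corrected for the length of the transcript and the size of the library, summed over a gene's transcripts.

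Mitochondria carry their own ribosome, which translates the few messages encoded in mitochondrial DNA, all of them for subunits of the oxidative phosphorylation complexes. Its RNAs come from mitochondrial DNA, while all of its proteins are encoded in the nucleus, made in the cytosol and imported. Many of these proteins have a bacterial counterpart and many others are found only in mitochondria, and the large subunit joins amino acids while the small subunit reads the message.

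Csf1 itself was at 1082, 1326 and 1678 FPKM in CSF1 libraries 3, 5 and 8, against 1.54, 2.25 and 3.98 FPKM in WT libraries 3, 5 and 8. The luminal keratin gene Krt8 was at 1408 to 2334 FPKM in CSF1 libraries and 1050 to 1721 FPKM in WT libraries. The summed markers of macrophages, stroma, basal cells and endothelium stood apart between the groups. The summed FPKM of 8 macrophage markers was 547 to 2203 in CSF1 libraries and 14.9 to 86.5 in WT libraries, with its highest value in CSF1 replicate 8 with Aif1 at 0 in WT replicate 3, and 8 of 8 markers were higher by the test described below. For 6 stromal markers the sum was 494 to 717 in CSF1 libraries and 96.9 to 113 in WT libraries, and 6 of 6 were higher. For 4 basal markers it was 393 to 526 in CSF1 libraries and 26.9 to 40.0 in WT libraries, and 3 of 3 tested were higher. Trp63, at 0 in WT replicate 5, was not tested. Its groups overlapped, with 0.338 FPKM in CSF1 replicate 8 and 0.364 FPKM in WT replicate 3. Endothelial markers summed to 7.35 to 12.4 in CSF1 libraries and 1.08 to 2.04 in WT libraries, with 2 of 2 tested higher and Kdr at 0 in WT replicate 8. Of 8 luminal markers 1 was higher, Tmprss2, and 1 was lower, Hoxb13, and with the replicate number as a block Krt8 was higher too (limma adjusted p = 0.0452, against 0.309 without the block). The part of these cells in the results below was not tested. The mean read depth behind 1 FPKM was 4.17, 5.01 and 4.37 in CSF1 libraries 3, 5 and 8 and 3.19, 3.50 and 2.72 in WT libraries 3, 5 and 8, so every CSF1 library was deeper than every WT library.

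The nuclear genes of mitochondrial proteins are known for promoters that bind NRF1, ETS-family factors such as GABP, and YY1. The start sites of 5 of the genes described below are shown because these letters were found in a larger share of the members' promoters than of all promoters, and because 4 of these genes were lower and 1 was higher in CSF1 cells. Each is the stretch of 120 bases that ends at the base before the annotated start, on the gene's own strand, from RefSeq on GRCm38.p6. Capitals mark CCGGAAG, the ETS motif, or the NRF1 motif, which is GCGC, then any base, then TGCGC, in either orientation. The third sequence searched, AAGATGGCG for YY1, is in none of these stretches. Mrpl53 is chr6:83108988-83109107 on the plus strand, Mrpl17 is chr7:105811088-105811207 on the minus strand, Mrps26 is chr2:130563637-130563756 on the plus strand, Mrps21 is chr3:95871515-95871634 on the minus strand, and Mrps31, with no match, is chr8:22411220-22411339 on the plus strand. The Mrps21 transcript whose FPKM is given below starts at 95870619 on that chromosome, so the Mrps21 stretch does not adjoin it.
Mrpl53: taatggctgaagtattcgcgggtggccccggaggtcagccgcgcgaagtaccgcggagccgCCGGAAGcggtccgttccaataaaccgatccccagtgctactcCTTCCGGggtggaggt
Mrpl17: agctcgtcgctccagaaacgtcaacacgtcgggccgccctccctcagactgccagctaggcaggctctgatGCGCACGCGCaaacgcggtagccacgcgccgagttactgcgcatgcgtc
Mrps26: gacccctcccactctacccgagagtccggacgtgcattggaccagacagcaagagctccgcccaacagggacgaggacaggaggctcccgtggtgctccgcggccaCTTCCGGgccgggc
Mrps21: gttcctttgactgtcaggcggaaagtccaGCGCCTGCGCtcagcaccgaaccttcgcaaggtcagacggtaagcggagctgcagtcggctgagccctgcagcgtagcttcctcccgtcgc
Mrps31: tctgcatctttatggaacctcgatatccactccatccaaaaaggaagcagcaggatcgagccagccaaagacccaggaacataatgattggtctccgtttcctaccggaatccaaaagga

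RefSeq windows of 250 bases before to 50 bases after the start were at hand for 68 of the 77 genes. The ETS letters were found in a window of 25 members, 36.8% of the 68, against 9.93% of all 27025 genes with a window. The NRF1 letters were in 13 members, 19.1%, against 5.19% of all genes. The YY1 letters were in 8 members, 11.8%, against 1.64% of all genes. At least 1 of the 3 was in 40 members, 58.8%, against 15.1% of all genes, and these were 26 of 42 Mrpl genes and 14 of 26 Mrps genes. Both strands were searched, and in no member window did matches of different motifs overlap. Member windows were richer in G and C, with a median of 58.5% against 52.7% over all windows, and the part of base composition in these shares was not tested. Of the 10 members that were lower in CSF1 cells, 8 had a window, and 7 of these held a match, against 33 of 60 other members.

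The family was expressed well above the typical gene. The median member was at 35.4 FPKM over the 6 libraries, against 9.15 FPKM over all genes tested. The order of the levels was nearly the same in both groups, with a Spearman correlation of 0.987 between the CSF1 and WT means over the 77 genes, which share their libraries. Within a group, the libraries of a tested member varied by a median coefficient of variation of 9.62%. Nearly all members, 68 of 77, were listed with a single transcript.

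Mrps21, a small-subunit protein with a bacterial counterpart, had the highest mean of all members, at 361 FPKM over the 6 libraries. Mrpl52, a mitochondria-specific protein of the large subunit, followed at 280 FPKM. It was at 238, 277 and 371 FPKM in CSF1 libraries 3, 5 and 8, against 253, 252 and 291 FPKM in WT libraries 3, 5 and 8, and the groups overlapped (log2 change 0.13 ± 0.17 SE, limma adjusted p = 0.608). Mrpl33, the counterpart of a small bacterial large-subunit protein, averaged 247 FPKM, Mrps6 averaged 163 FPKM and Mrpl54 averaged 160 FPKM. Mrps18c averaged 114 FPKM. Mrpl33 and Mrpl52 lay within 1 SD of each other in the CSF1 libraries, at 292 ± 78.4 FPKM and 296 ± 68.4 FPKM (SD, n = 3).

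At the other end, Mrpl48 was listed at 0 in all 6 libraries for both of its transcripts. It is the only member that was not tested. Mrpl19 averaged 4.11 FPKM, Mrps25 5.59 FPKM, Mrps31 6.60 FPKM, Mrpl35 8.09 FPKM and Mrps22 8.36 FPKM. Apart from Mrps31, these low members did not pass the test, with log2 changes of 0.19 ± 0.23 for Mrpl19, -0.05 ± 0.18 for Mrps25, 0.09 ± 0.15 for Mrpl35 and 0.11 ± 0.24 for Mrps22 (SE). Cufflinks divides reads between transcripts that share exons, and values of 0 can come from that step. The 2 listed transcripts of Mrps33, a gene picked after its values were seen, include such values: 1 of them, NM_001010930, was listed at 0, 8.01 and 0 FPKM in CSF1 libraries 3, 5 and 8, and at 5.42, 0 and 6.72 FPKM in WT libraries 3, 5 and 8.

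In CSF1 cells few members moved, and those that did were almost all lower. By limma on log2(FPKM + 1), with Benjamini-Hochberg adjustment over the 10951 genes that averaged 1 FPKM or more and a threshold of 0.05, 10 of the 76 tested members were lower, 1 was higher and 65 did not pass. Over all tested genes 7.47% were lower and 24.9% were higher, so the members' 13.2% lower was above that background and their 1.32% higher was below it. Their median log2 change was -0.07, which is 0.24 below the median over all tested genes of 0.17. All CSF1 libraries lay below all WT libraries in 21 members, against 13.1% of all tested genes, and above them in 6 members, against 34.7% of all tested genes. At an unadjusted p under 0.05, 14 members were lower and 2 were higher. The share of all tested genes at that threshold was not counted, so nothing is read from these counts. In bulk RNA, fewer cells of a type and less RNA per cell cannot be told apart.

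The count rests on how FPKM was scaled and on single libraries. With quantile normalization 26 members were lower, 0 were higher, and 21.1% of all genes were lower. With median-ratio scaling 20 were lower, 0 were higher, and 12.9% of all genes were lower. With the replicate number as a block 10 were lower and 2 were higher, beside 8.13% and 26.3% of all genes. The median of all tested genes moved with the scaling, to -0.16 under quantile normalization and 0.05 under median-ratio scaling, and the median of the members stayed 0.16 and 0.25 below it. Leaving out WT replicate 5 left 3 members lower, WT replicate 8 left 4, CSF1 replicate 3 left 4 and CSF1 replicate 8 left 6. Of all tested genes 4.32%, 4.77%, 5.73% and 5.97% were then lower, so that the members' share was below the background without WT replicate 5 and without CSF1 replicate 3. Without the intensity trend of limma 5 members were lower, or 6.58% of those tested, against 6.93% of all genes.

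The background itself differed between classes of genes. The median member's longest transcript was 1055 bases in the large subunit and 1053 bases in the small subunit, against 2646 bases over all tested genes. Of all tested genes of up to 700 bases, 18.2% were lower, as were 3 of 14 members. Of those of 701 to 1000 bases, 15.1% were lower, as were 5 of 17 members. Of those of 1001 to 1500 bases, 11.4% were lower, as was 1 of 22 members. Of longer genes, 5.73% were lower, as was 1 of 23 members. By level, 4.15% of all genes at 1 to 10 FPKM were lower, as were 0 of 9 members, and 7.30% of those at 10 to 30 FPKM were lower, as was 1 of 23 members. At higher levels, 14.7% of all genes at 30 to 100 FPKM were lower, as were 6 of 33 members, and 16.8% of those at 100 FPKM and over were lower, as were 3 of 11 members. The members' share of lower genes was thus above the background in both shorter classes and both higher levels, and below it in both longer classes and both lower levels. Each class held few members, and several of these shares lay near the background, such as 3 of 14 beside 18.2% and 1 of 23 beside 5.73%. The differences were not tested. Over the same classes the share of all genes that were higher ran from 13.1% up to 700 bases to 26.0% over 1500 bases, and no tested member of up to 1500 bases was higher.

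**Figure D1:**
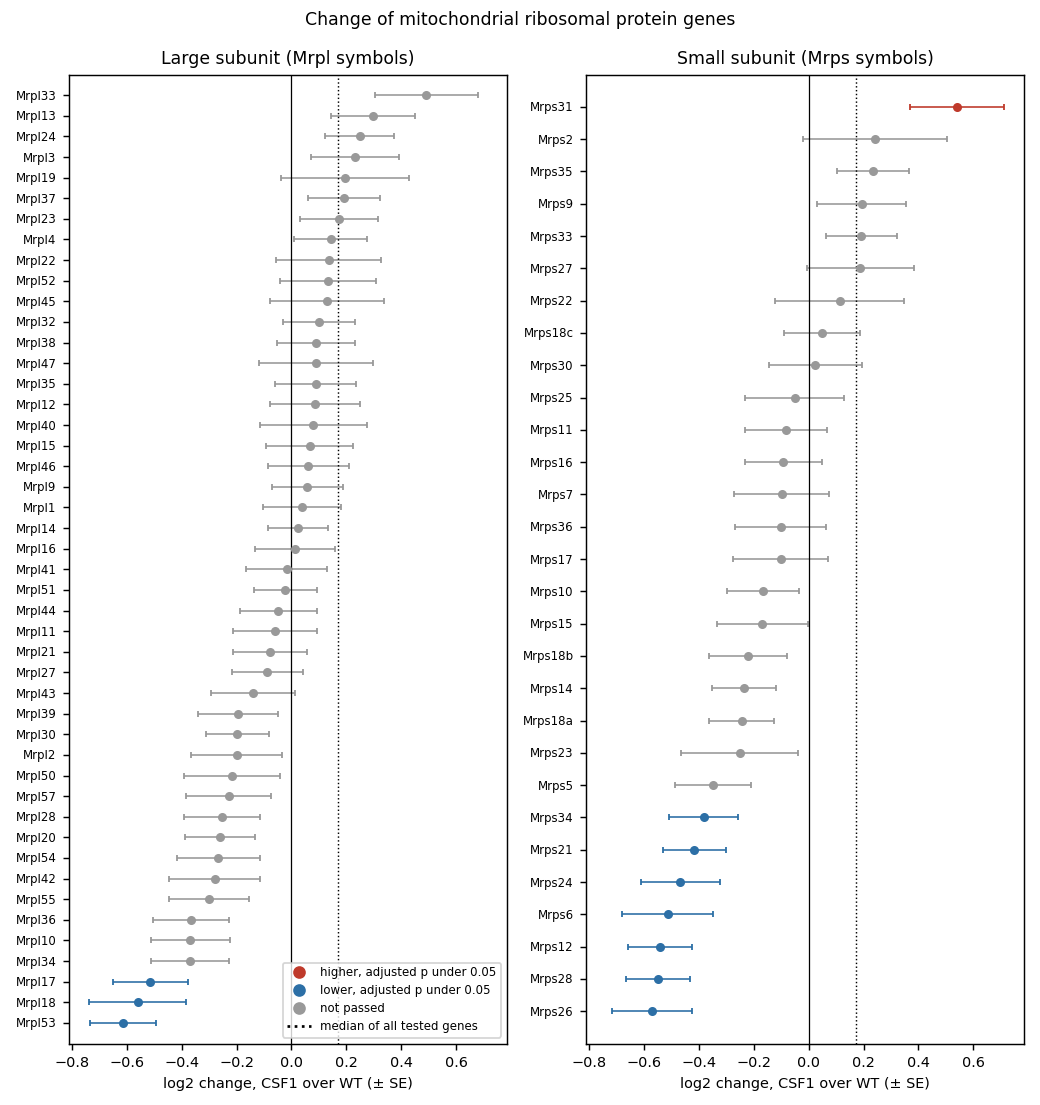
Log2 change of each tested member, CSF1 over WT, with its standard error, for the large subunit (left) and the small subunit (right), on FPKM as deposited. Blue points are the 10 members lower in CSF1 cells, the red point is Mrps31, grey points did not pass, and the dotted line is the median of all tested genes at 0.17; Mrpl49, listed at 0 in 1 WT library, is left out of the plot.

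The small subunit held most of the calls. Of its 29 genes, 7 were lower, 1 was higher and 21 did not pass, with a median log2 change of -0.10. Of the 47 tested large-subunit genes, 3 were lower and 44 did not pass, with a median log2 change of 0.01 that became -0.13 under median-ratio scaling and -0.25 under quantile normalization. Against the median of all genes, the small-subunit and large-subunit medians were 0.27 and 0.16 lower. The share of lower genes was 24.1% in the small and 6.38% in the large subunit, against 7.47% of all tested genes. The groups lay apart with CSF1 lower in 11 of 29 small-subunit genes and in 10 of 47 large-subunit genes, against 13.1% of all tested genes. They lay apart with CSF1 higher in 3 genes of each subunit, against 34.7% of all tested genes. Under quantile normalization each subunit had 13 lower genes, 27.7% of the large and 44.8% of the small, against 21.1% of all genes. Under median-ratio scaling each had 10, or 21.3% of the large and 34.5% of the small, against 12.9% of all genes. The difference between the subunits was not tested, since members are not replicates.

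Symbols do not always give the place in the ribosome. Mrps30 and Mrps18a are now known to sit in the large subunit, and Mrps36 is known as a part of the α-ketoglutarate dehydrogenase complex. None of the 3 passed the test: Mrps30 had a log2 change of 0.02 ± 0.17, Mrps18a of -0.24 ± 0.12 and Mrps36 of -0.10 ± 0.17 (SE). With genes placed by position, 3 of 49 large-subunit genes and 7 of 26 small-subunit genes were lower. These shares were 6.12% and 26.9%, against 7.47% of all tested genes.

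Summed over its genes, the small subunit had 1472, 1545 and 1472 FPKM in CSF1 libraries 3, 5 and 8, against 1726, 1881 and 1873 FPKM in WT libraries 3, 5 and 8. The groups did not overlap. The large subunit had 2230, 2459 and 2635 FPKM in CSF1 libraries 3, 5 and 8, against 2310, 2592 and 2649 FPKM in WT libraries 3, 5 and 8. There the groups overlapped. The ratio of the large to the small sum was 1.51, 1.59 and 1.79 in CSF1 libraries 3, 5 and 8, against 1.34, 1.38 and 1.41 in WT libraries 3, 5 and 8, so every CSF1 library had the higher ratio.

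A few abundant genes carry these sums. Without Mrpl33 and Mrpl52 the ratio was 1.19, 1.25 and 1.28 in CSF1 libraries 3, 5 and 8, against 1.08, 1.13 and 1.15 in WT libraries 3, 5 and 8. The groups stayed apart. Without the 10 lower genes, which were chosen by their change, the ratio was 2.93, 3.09 and 3.25 in CSF1 libraries 3, 5 and 8, against 2.94, 2.93 and 2.93 in WT libraries 3, 5 and 8, and the groups overlapped. Taking out genes because they fell, 7 of them in the small subunit, draws the ratios together by design. Nothing is read from that overlap. When each gene counts equally, the mean log2 level of large-subunit genes minus that of small-subunit genes was -0.11, -0.12 and -0.08 in CSF1 libraries 3, 5 and 8, against -0.28, -0.20 and -0.14 in WT libraries 3, 5 and 8. Leaving out Mrpl49 made these values -0.09, -0.09 and -0.05 in CSF1 libraries, against -0.17, -0.18 and -0.12 in WT libraries. With and without Mrpl49, every CSF1 value was above every WT value. All members together took 0.720%, 0.768% and 0.759% of the FPKM of CSF1 libraries 3, 5 and 8, against 0.794%, 0.895% and 0.823% in WT libraries 3, 5 and 8.

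**Figure D2:**
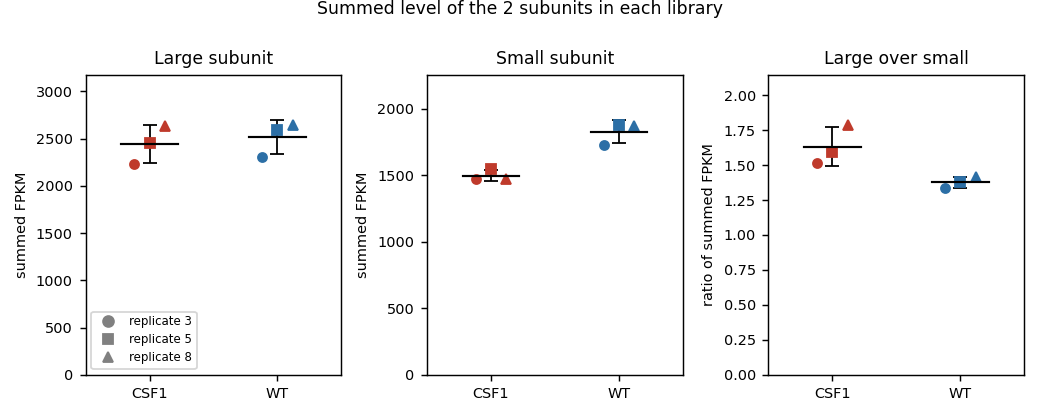
Summed FPKM of the large-subunit and small-subunit genes and their ratio in each library, with the group mean (line) and SD (bar), CSF1 left of WT. The small-subunit sums of CSF1 libraries, 1472 to 1545 FPKM, all lie below those of WT libraries, 1726 to 1881 FPKM, while the large-subunit sums overlap.

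Among small-subunit genes with a bacterial counterpart, 5 of 16 were lower and none was higher, with a median log2 change of -0.17. The lower share was 31.25%, against 7.47% of all tested genes. Mrps12, the counterpart of the protein at the bacterial decoding centre where streptomycin resistance arises, was at 75.7, 79.1 and 79.4 FPKM in CSF1 libraries 3, 5 and 8, against 112, 122 and 109 FPKM in WT libraries 3, 5 and 8. Every CSF1 library lay well under every WT library, and the mean was 68.3% of that in WT (log2 change -0.54 ± 0.12 SE, limma adjusted p = 0.00800). Mrps28, which takes the place of part of a bacterial protein that binds the message, was at 79.0, 70.2 and 71.6 FPKM in CSF1 libraries 3, 5 and 8, against 105, 108 and 110.5 FPKM in WT libraries 3, 5 and 8. Its WT libraries were almost alike and none came near the CSF1 range (log2 change -0.55 ± 0.12, limma adjusted p = 0.00773). Both calls held under each of the 15 alternatives, with adjusted p of at most 0.0470 for Mrps12 and 0.0387 for Mrps28.

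The other 3 of these genes passed less firmly: Mrps21, Mrps24 and Mrps6 did not pass without the intensity trend, with limma adjusted p of 0.0516, 0.0614 and 0.0710, and Mrps6 did not pass with no filter on low values, at 0.0805. Mrps21, the most abundant member, was at 302, 324 and 300.4 FPKM in CSF1 libraries 3, 5 and 8, against 392, 416 and 429.7 FPKM in WT libraries 3, 5 and 8. The groups lay apart, at 309 ± 13.4 FPKM in CSF1 cells and 413 ± 18.9 FPKM in WT cells (SD, n = 3 each, log2 change -0.42 ± 0.11 SE, limma adjusted p = 0.0236). Its limma adjusted p was 0.0916 without WT replicate 5, 0.0580 without WT replicate 8, 0.0815 without CSF1 replicate 3 and 0.0586 without CSF1 replicate 5. Mrps24, the counterpart of a protein where the message enters the bacterial ribosome, was at 71.5, 67.8 and 58.7 FPKM in CSF1 libraries 3, 5 and 8, against 81.8, 104 and 89.4 FPKM in WT libraries 3, 5 and 8. The groups lay close but apart (log2 change -0.47 ± 0.14, limma adjusted p = 0.0362). Without WT replicate 5, WT replicate 8, CSF1 replicate 3, CSF1 replicate 5 or CSF1 replicate 8, the limma adjusted p of Mrps24 was 0.149, 0.0707, 0.0539, 0.0807 or 0.0936. It shares 226 exon bases on its own strand with Urgcp, so its reads are not fully its own.

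Mrps6, whose bacterial counterpart pairs with S18 on the platform of the small subunit, was at 142, 160 and 105 FPKM in CSF1 libraries 3, 5 and 8, against 203, 189 and 182 FPKM in WT libraries 3, 5 and 8. CSF1 replicate 8 was the lowest of the 6, and the groups did not overlap (log2 change -0.51 ± 0.17, limma adjusted p = 0.0444). Without CSF1 replicate 8 the log2 change of Mrps6 was -0.34, with a limma adjusted p of 0.0925. That p was 0.106, 0.116, 0.0763 and 0.0768 without WT replicate 3, WT replicate 5, WT replicate 8 and CSF1 replicate 3. Mrps6 shares 159 exon bases on its strand with Slc5a3. The Mrps18 paralogs did not pass: Mrps18a, Mrps18b and Mrps18c had log2 changes of -0.24 ± 0.12, -0.22 ± 0.14 and 0.05 ± 0.14 (SE), with limma adjusted p of 0.154, 0.276 and 0.826. Mrps18a passed as lower under median-ratio scaling (adjusted p = 0.0239) and quantile normalization (0.0172), and Mrps18b under quantile normalization (0.0378). Mrps18a was at 70.0, 67.0 and 64.9 FPKM in CSF1 libraries 3, 5 and 8, against 79.7, 75.0 and 85.1 FPKM in WT libraries 3, 5 and 8. Its groups lay apart all the same. Mrps2, with the largest positive change of this class, had a log2 change of 0.24 ± 0.26 and did not pass.

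Of the 10 small-subunit genes found only in mitochondria, 2 were lower, 1 was higher and 7 did not pass, with a median log2 change of 0.03. The shares were 20% lower and 10% higher, against 7.47% and 24.9% of all tested genes. Mrps26 was at 29.9, 31.3 and 27.8 FPKM in CSF1 libraries 3, 5 and 8, against 39.2, 52.4 and 43.1 FPKM in WT libraries 3, 5 and 8. The mean in CSF1 cells was 66.1% of that in WT cells and the groups lay apart (log2 change -0.57 ± 0.15, limma adjusted p = 0.0173). Its limma adjusted p was 0.0793 without WT replicate 5. Mrps34, whose loss in mice and people disturbs mitochondrial translation, was at 62.1, 72.3 and 61.6 FPKM in CSF1 libraries 3, 5 and 8, against 80.0, 88.0 and 87.9 FPKM in WT libraries 3, 5 and 8. The gap between the groups was narrow (log2 change -0.38 ± 0.13, limma adjusted p = 0.0476), and leaving out any 1 library ended the call, with adjusted p of 0.0506, 0.157 and 0.105 without WT replicates 3, 5 and 8 and of 0.139, 0.0571 and 0.109 without CSF1 replicates 3, 5 and 8. It did not pass without the intensity trend either (0.0833). Its exons share 2072 bases with Mapk8ip3 and Nme3.

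Mrps31 was the only member that rose. It was at 6.85, 8.55 and 8.61 FPKM in CSF1 libraries 3, 5 and 8, against 4.50, 5.01 and 6.06 FPKM in WT libraries 3, 5 and 8. The groups did not overlap, though CSF1 replicate 3 lay close to WT replicate 8, and the CSF1 mean was 154% of the WT mean (log2 change 0.54 ± 0.17, limma adjusted p = 0.0426). The call was lost under both other scalings, with a log2 change of 0.20 and an adjusted p of 0.337 under quantile normalization and 0.42 and 0.0731 under median-ratio scaling. It was lost as well without WT replicate 3, WT replicate 5, CSF1 replicate 5 or CSF1 replicate 8, with limma adjusted p of 0.119, 0.124, 0.123 and 0.102. Mrps35, at 22.9, 22.9 and 21.5 FPKM in CSF1 libraries 3, 5 and 8 and 17.3, 19.7 and 19.9 FPKM in WT libraries 3, 5 and 8, did not pass although its groups lay apart (log2 change 0.23 ± 0.13, limma adjusted p = 0.211).

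**Figure D3:**
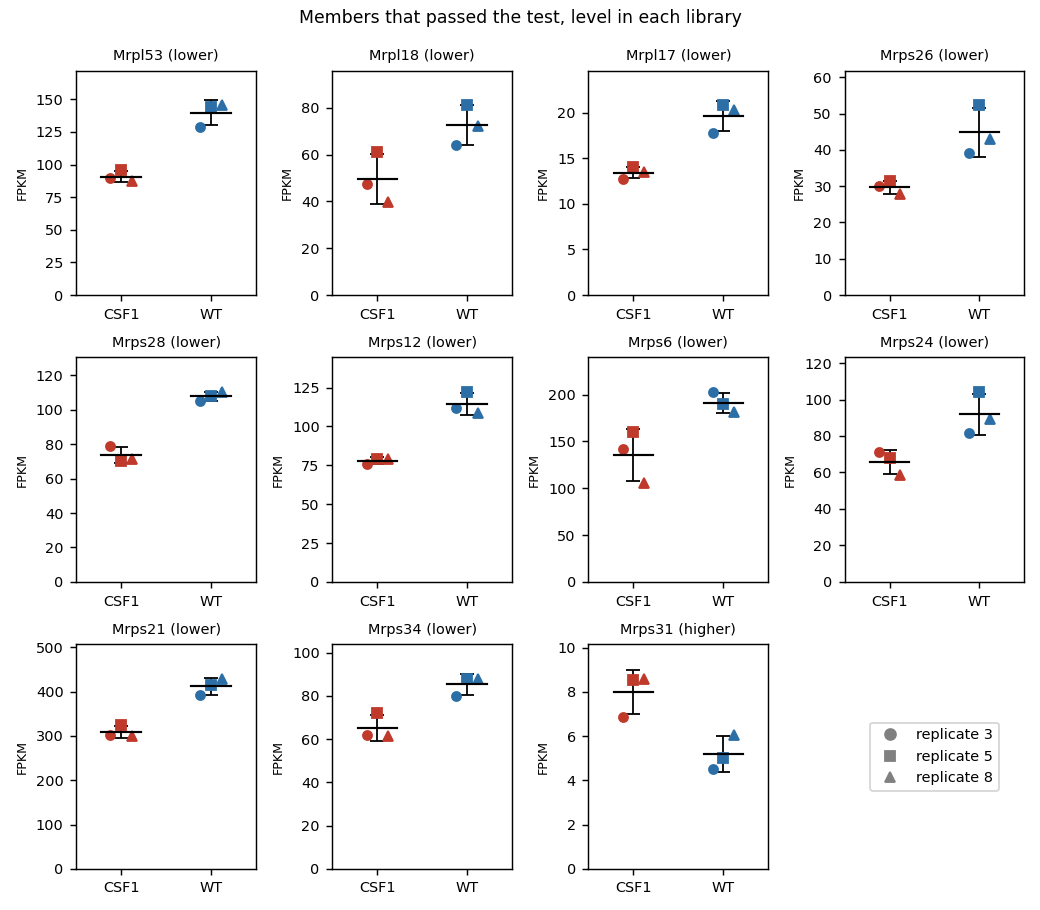
FPKM in each library of the 11 members that passed the test, with the group mean (line) and SD (bar), CSF1 left of WT, each vertical axis from 0. In the 10 genes titled lower every CSF1 library lies below every WT library, and in Mrps31 every CSF1 library lies above; the call of Mrps31 was lost under median-ratio scaling and quantile normalization.

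In the large subunit, Mrpl53, a protein with no bacterial counterpart, had the largest fall of all members. It was at 89.3, 95.5 and 87.6 FPKM in CSF1 libraries 3, 5 and 8, against 129, 144 and 146 FPKM in WT libraries 3, 5 and 8. The groups were far apart, at 90.8 ± 4.17 FPKM in CSF1 cells and 139.6 ± 9.52 FPKM in WT cells (SD, n = 3 each, log2 change -0.61 ± 0.12 SE, limma adjusted p = 0.00499). Its exons overlap no other listed gene, and the call held under each of the 15 alternatives, with an adjusted p of at most 0.0311. It was 1 of 17 tested mitochondria-specific proteins of this subunit, whose median log2 change was -0.02, and the only one of them to pass. Their lower share was 5.88%, against 7.47% of all tested genes.

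Of the 30 large-subunit genes with a bacterial counterpart, 2 were lower, with a median log2 change of 0.03. The lower share was 6.67%, against 7.47% of all tested genes. Mrpl17, whose bacterial counterpart lies near the exit of the peptide tunnel, was at 12.7, 14.0 and 13.5 FPKM in CSF1 libraries 3, 5 and 8, against 17.8, 20.9 and 20.3 FPKM in WT libraries 3, 5 and 8. Both groups were tight and lay apart (log2 change -0.51 ± 0.14, limma adjusted p = 0.0200). The adjusted p was 0.0877 without WT replicate 5, 0.0555 without WT replicate 8 and 0.0683 without CSF1 replicate 3. Mrpl18, a protein of the central protuberance, was at 47.5, 61.0 and 39.8 FPKM in CSF1 libraries 3, 5 and 8, against 64.3, 81.2 and 72.2 FPKM in WT libraries 3, 5 and 8. CSF1 replicate 5 came near WT replicate 3, without overlap (log2 change -0.56 ± 0.18, limma adjusted p = 0.0413). The adjusted p was 0.150, 0.0923, 0.103 and 0.106 without WT replicate 5, WT replicate 8, CSF1 replicate 3 and CSF1 replicate 8, 0.0621 without the intensity trend and 0.0761 with no filter on low values. Mrpl18 shares 141 exon bases with Tcp1 on the opposite strand, and the kits named in the labels do not mark strand.

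Mrpl33 showed the largest positive change of this class. It was at 235, 259 and 381 FPKM in CSF1 libraries 3, 5 and 8, against 188, 215 and 206 FPKM in WT libraries 3, 5 and 8. All CSF1 libraries were higher, with CSF1 replicate 8 far above the others, and the gene did not pass (log2 change 0.49 ± 0.19, limma adjusted p = 0.0764). With the replicate number as a block its adjusted p was 0.0468, and without CSF1 replicate 3 it was 0.0475. Both other scalings weakened the change, to 0.31 under quantile normalization (limma adjusted p = 0.151) and 0.35 under median-ratio scaling (0.202). Mrpl13 was at 57.8 ± 5.80 FPKM in CSF1 cells and 47.0 ± 6.97 FPKM in WT cells (SD, n = 3 each) and did not pass either.

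Mrpl49 had the largest fitted change, and that change came from 1 value. It was at 15.5, 14.7 and 13.7 FPKM in CSF1 libraries 3, 5 and 8, against 0, 20.5 and 20.1 FPKM in WT libraries 3, 5 and 8. The 0 in WT replicate 3 had an upper bound of 0.0415 FPKM in the deposited table, while the other 5 libraries ranged over 13.7 to 20.5 FPKM. With it the log2 change was 1.02 ± 1.02 (SE, limma adjusted p = 0.488), and without WT replicate 3 it was -0.45 (limma adjusted p = 0.0585).

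Among the genes listed for the stalk, the central protuberance and the exit of the peptide tunnel, only Mrpl18 passed. The stalk proteins, which recruit the translation factors, did not pass. Mrpl10 was at 25.4, 30.6 and 28.4 FPKM in CSF1 libraries 3, 5 and 8, against 32.2, 37.2 and 40.7 FPKM in WT libraries 3, 5 and 8, and its groups lay apart (log2 change -0.37 ± 0.14, limma adjusted p = 0.0847, and 0.0104 under median-ratio scaling). Mrpl11 and Mrpl12 had log2 changes of -0.06 ± 0.15 and 0.09 ± 0.16 (SE). Mrpl54, one of the most abundant mitochondria-specific proteins, was at 146 ± 22.4 FPKM in CSF1 cells and 175 ± 16.8 FPKM in WT cells (SD, n = 3 each, limma adjusted p = 0.216, and 0.0484 under median-ratio scaling). Of 7 tested genes around the central protuberance, Mrpl18 was the only one to pass, and their median log2 change was 0.06. Of 7 other genes listed for the exit of the peptide tunnel, none passed, with a median log2 change of 0.13. That list leaves out Mrpl17, which was lower and whose bacterial counterpart lies near the exit. Under median-ratio scaling and quantile normalization, members' changes moved down, and 19 and 28 members changed sign.

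Overlapping genes could add reads to some members. By GENCODE M21 on GRCm38, the build called mm10, 23 members have exons that overlap another listed gene, 20 of them on the opposite strand. Among the 54 tested members with no such overlap 5 were lower, or 9.26%, and 1 was higher. Among the 22 with one 5 were lower, or 22.7%, against 7.47% of all tested genes. The members lie on 17 chromosomes, with 10 on chromosome 11, 8 on chromosome 17 and 7 on chromosome 6. A protein-coding neighbour on the other strand starts within the 1000 bases before the start of 18 members, 23.4%. The share was 7.05% of 19903 listed protein-coding genes. Pairs that overlap at their starts, such as Mrpl46 and Mrps11, were not counted. In 13 of the 18 counted pairs both genes were tested, and among the partners 1 was higher, 12 did not pass and 0 were lower. Over all tested genes 24.9% were higher and 7.47% were lower. Mrps12 starts 172 bases from Sars2, the mitochondrial seryl-tRNA synthetase gene, which had a log2 change of 0.30 (limma adjusted p = 0.277) beside -0.54 for Mrps12. Mrps34 starts 29 bases from Eme2, which had a log2 change of -0.50 (limma adjusted p = 0.0531, and 0.0124 under median-ratio scaling). The higher partner was Mitd1, 66 bases from Mrpl30, with log2 changes of 0.52 for Mitd1 and -0.20 for Mrpl30, and Mitd1 did not pass under median-ratio scaling (adjusted p = 0.0715).

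Genes that work with the mitochondrial ribosome gave few calls, beside 7.47% lower and 24.9% higher over all tested genes. Of 6 tested ribosomal proteins with other symbols, Gadd45gip1 was lower, at 17.0, 18.7 and 18.5 FPKM in CSF1 libraries 3, 5 and 8, against 22.2, 30.5 and 28.0 FPKM in WT libraries 3, 5 and 8 (log2 change -0.54 ± 0.15, limma adjusted p = 0.0269). Of 16 translation factors, only Gfm2, the factor that helps release ribosomes after termination, passed. It was listed at 0 in all CSF1 libraries and at 3.72, 4.72 and 5.61 FPKM in WT libraries 3, 5 and 8, and whether these values of 0 are failed estimates was not tested. Of 26 assembly and ribosomal RNA factors, only Mterf3 passed, with a log2 change of 0.46 ± 0.15 (limma adjusted p = 0.0414) that did not pass under median-ratio scaling (0.148). The direction of the calls in that list turned with the scaling, with 0 higher and 2 lower, Mtg1 and Tfb1m, under median-ratio scaling and 0 higher and 5 lower under quantile normalization. These lower shares, 7.69% and 19.2%, lay below the 12.9% and 21.1% of all genes, so the turn is not particular to this list. With the replicate block 1 was higher, Mterf3, and 1 was lower, Mtg1 (limma adjusted p = 0.0479). Of the ribosomal proteins with other symbols 2 were lower under median-ratio scaling, or 33.3%, and 5 under quantile normalization, or 83.3%. Of the translation factors 1 and 4 were, or 6.25% and 25%. Over all genes the shares under these scalings were 12.9% and 21.1%.

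Among 18 mitochondrial aminoacyl-tRNA synthetase and amidotransferase genes 2 were lower, or 11.1%, against 7.47% of all tested genes. Lars2, which charges leucine tRNA, was at 252, 229 and 262 FPKM in CSF1 libraries 3, 5 and 8, against 1105, 1243 and 561 FPKM in WT libraries 3, 5 and 8. The CSF1 libraries were close together and the WT libraries spread widely above them (log2 change -1.89 ± 0.27, limma adjusted p = 0.00114). The Lars2 mean of 609 FPKM over the 6 libraries stood far above the rest of this list, where Yars2 came next at 16.7 FPKM. Whether all reads counted for Lars2 come from its own message was not tested. Gatc, a subunit of the amidotransferase that makes glutamine tRNA, had a log2 change of -0.68 ± 0.20 (limma adjusted p = 0.0328, and 0.0567 with the replicate block). Under quantile normalization 5 of the 18 were lower, or 27.8%, against 21.1% of all genes.

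In the list of mitochondrial DNA transcription, replication and regulation genes, 5 of 17 tested were higher and none was lower. Its share of 29.4% higher lay near the 24.9% of all genes, and its median log2 change of 0.24 lay 0.07 above theirs. Under median-ratio scaling 3 were higher and 1 was lower, or 17.6% and 5.88%, against 20.9% and 12.9% of all genes. Under quantile normalization 1 was higher and 2 were lower, or 5.88% and 11.8%, against 16.3% and 21.1% of all genes. Tfam, which packages mitochondrial DNA, was at 6.33, 6.11 and 7.09 FPKM in CSF1 libraries 3, 5 and 8, against 3.53, 4.10 and 4.44 FPKM in WT libraries 3, 5 and 8 (log2 change 0.58 ± 0.16, limma adjusted p = 0.0246). Nrf1, the factor whose motif letters are marked above in Mrpl17 and Mrps21, was at 6.91, 5.69 and 7.54 FPKM in CSF1 libraries 3, 5 and 8, against 3.42, 4.20 and 2.99 FPKM in WT libraries 3, 5 and 8 (log2 change 0.77 ± 0.18, limma adjusted p = 0.0124). In both genes the groups lay apart. Gabpb1, a subunit of GABP, had a log2 change of 1.05 ± 0.18 (limma adjusted p = 0.00263), and Polg, the mitochondrial DNA polymerase, of 0.50 ± 0.15 (limma adjusted p = 0.0325). Gabpa, the DNA-binding subunit, passed because it was listed at 0 in WT replicates 5 and 8, with 7.61, 7.30 and 7.21 FPKM in CSF1 libraries 3, 5 and 8 and 6.43 FPKM in WT replicate 3. Under quantile normalization Tfam, Nrf1, Polg and Gabpa did not pass, with adjusted p of 0.296, 0.140, 0.394 and 0.0919, and under median-ratio scaling Polg and Gabpa did not, with 0.0811 and 0.0720.

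For scale, 2 other families of short, abundant genes were read from the same fit, both picked by symbol after the data had been seen. Of 75 cytosolic ribosomal protein genes 11 were lower and none was higher, with a median log2 change of -0.22 and with CSF1 below WT without overlap in 40. Of 35 tested complex I subunit genes, named Nduf, 4 were lower and 1 was higher, with a median of -0.11. The corresponding figures for the mitochondrial ribosome were 10 lower and 1 higher of 76, with a median of -0.07. In the order given the lower shares were 14.7%, 11.4% and 13.2%, against 7.47% of all tested genes. Of all tested genes 24.9% were higher, and 13.1% had CSF1 below WT without overlap. Under quantile normalization 52 of the cytosolic ribosomal protein genes and 13 of the complex I genes were lower, or 69.3% and 37.1%, against 21.1% of all genes. Under median-ratio scaling 37 and 13 were, or 49.3% and 37.1%, against 12.9% of all genes. Differences among the families were not tested.

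**Figure D4:**
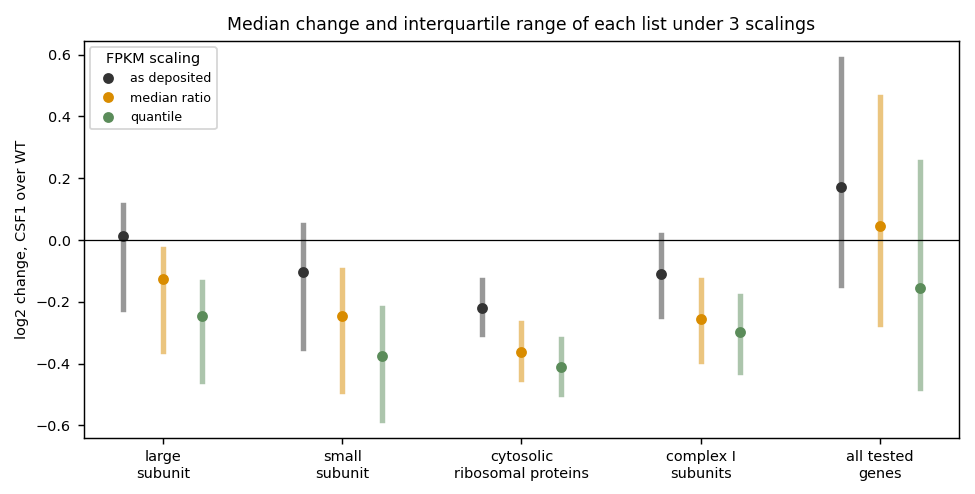
Median log2 change, CSF1 over WT (points), and the interquartile range (bars) of each list under FPKM as deposited, median-ratio scaling and quantile normalization. The large-subunit median is 0.01 as deposited and below 0 under both other scalings, the median of all tested genes is below 0 under quantile normalization only, and the other medians are below 0 under all 3.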

How the data were processed

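RNA of 3 CSF1 and 3 WT libraries was made into cDNA with the SMART-Seq v4 kit, per the labels' protocols, and the library kit is given there once as Nextera XT and once as TruSeq DNA. Per the submitters' processing notes, bcl2fastq 1.8.3, TopHat and Cufflinks were used with mm10, and versions of the last pair are not stated. The authors deposited FPKM per RefSeq transcript with Cufflinks' FPKM confidence bounds, and a coverage signal that was 1 constant times FPKM in each deposited table. Fragment totals are not given in the tables, so the depth behind a value is known only through this constant.

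FPKM was summed per gene symbol. The 9 genes with a failed Cufflinks status, none of them a member, were left out, and genes that averaged 1 FPKM or more were tested: a gene near 0 in 1 group passes only through the other. The test was limma 3.58.1 in R 4.3.3 (two-sided, intensity trend) on log2(FPKM + 1), which understates changes of low genes, and it was tested on simulated data. The members and lists were chosen with earlier results of these data known. Named were members past the threshold, the 3 highest, 3 lowest, 3 most raised and 3 most lowered of each subunit, the Mrps18 and stalk genes, Mrps30, Mrps36, and any gene of the other lists past the threshold. Deviations of libraries with the same number correlated at 0.26, 0.11 and 0.18 for 3, 5 and 8, and at -0.23 to -0.01 for other pairs. The numbers may thus pair the samples, which rests on the data alone. The main test left this pairing out, and only the alternative with the replicate number as a block used it. Alternatives were pseudocounts of 0.1 and 5, filters, scalings, the block, no trend, and each library left out. Promoter windows came from RefSeq on GRCm38.p6 and gene positions from GENCODE M21.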

Additional observations from a re-analysis of the deposited data

How the results depend on the processing

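No named member changed direction past the threshold under the 15 alternatives. The balance of higher and lower calls in the assembly and the transcription lists did turn with the scaling, as given above. The number of members lower in CSF1 cells was 26 under quantile normalization, 20 after median-ratio scaling and 5 without the intensity trend, and 3 to 10 with 1 library left out, while 21.1%, 12.9%, 6.93% and 4.32% to 7.70% of all genes were lower. The number higher was 0 with no filter, with a filter of 5 FPKM and under both scalings, 2 with the replicate block, and 0 to 2 with 1 library left out. For the large subunit, 13 were lower under quantile normalization, 10 after median-ratio scaling and 1 to 5 with 1 library left out, and 1 was higher with the replicate block and 0 to 1 with 1 library left out. For the small subunit, 13 were lower with quantile normalization, 3 without the trend and 2 to 5 with 1 library left out, and 0 were higher with no filter, with a filter of 5 FPKM and under both scalings, and 0 to 1 with 1 library left out. The small-subunit median minus that of all genes was -0.27, -0.20 with a pseudocount of 5, -0.19 with no filter, and -0.38 to -0.25 with 1 library left out. Under both scalings 10 of the 11 calls were kept and Mrps31 was lost. Without the trend Mrpl18, Mrps6, Mrps21, Mrps24 and Mrps34 were lost, and with no filter Mrpl18, Mrps6 and Mrps31 were. With the replicate block Mrpl33 also passed, and no other member's call changed. The causes were not tested. The tables do not give fragment totals, so counting error is known only through the deposited confidence bounds of each transcript.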
